A study of Mus musculus with 2 samples.

Results

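Nuclear receptors are transcription factors that many small lipophilic ligands control directly. The set described here holds 38 members of this superfamily in the mouse, chosen by gene symbol and leaving out the COUP-TF genes and the Nr4a genes, and all 38 had a row among the 31252 gene rows of the table. It was examined in RNA from the ventral midbrain, the region that holds the substantia nigra and the ventral tegmental area, in mice made to overexpress COUP-TFII, itself a nuclear receptor encoded by Nr2f2. There were 2 libraries, 1 per group, from mice aged 2 months on an incipient congenic C57BL/6 background. The Ctrl group carries Cre recombinase under the promoter of Slc6a3, the dopamine transporter gene, and the OE group carries in addition the CAG-S-COUP-TFII allele at ROSA26, from which Cre switches on COUP-TFII. In the breeding scheme of the study both groups come from parents that also carry a tdTomato reporter at ROSA26 and a floxed allele of Tfam, a mitochondrial transcription factor. By that scheme each pup of either group inherits the reporter and at least 1 floxed Tfam allele. Cre acts only where Slc6a3 is active, whereas the RNA is from the whole tissue, although the label names dopaminergic neurons as the cell type. How many mice went into a library is not given in the sources used here.

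A typical receptor has a zinc-finger domain that binds DNA and a domain that binds ligand. Many bind a hexamer, AGGTCA, alone or as a repeat, often with a retinoid X receptor (RXR) as partner. Without ligand, several of them recruit corepressors, and ligand exchanges these for coactivators. Some steroid receptors, the glucocorticoid receptor among them, instead wait in the cytoplasm with heat shock protein chaperones until hormone arrives. In the brain the superfamily reads thyroid hormone, retinoic acid, glucocorticoids, sex steroids and oxysterols, and a branch of it, the REV-ERB and ROR receptors, closes a loop of the circadian clock.

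The tissue and the labels were checked first. Dopaminergic genes were present in both libraries: Th, the rate-limiting enzyme of dopamine synthesis, had 2499 counts in the library labelled Ctrl against 9354 in that labelled OE. From here on, paired values give the library labelled Ctrl first. Slc6a3 had 4955 and 15033 counts, and Ddc, which makes dopamine from L-DOPA, had 2799 and 7790. Nr2f2, the overexpressed gene, had 637 and 377 counts, a log2 difference of -1.07 (-1.26 to -0.88). It therefore goes against the labels. The RNA is from the whole tissue, and the libraries also differed in cell type markers, as given below. The part of those differences in the Nr2f2 value was not tested. Whether the labels or columns were exchanged was not tested, and all directions below are those of the libraries as labelled. If they were exchanged, each sign would turn, and the receptors called would be 6 higher and 3 lower in OE. Total counts were 16984336 and 21326632. With 1 library per group no difference has a replicate check and no p-value is given. Fold changes are log2 ratios, labelled OE over labelled Ctrl, after TMM scaling, and the interval after each is an exact 95% counting interval that compares these libraries only. A gene with a mean of at least 10 counts is called higher or lower where it passes log2 0.2 and its interval excludes 0.

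Other cell types also differed between the libraries. The marker lists were chosen with earlier results of these data known. Counts and medians are over tested markers, and summed levels are over all markers in the table. All 16 dopaminergic neuron markers were higher where the label is OE (median log2 fold change 1.30), with summed levels of 1618 and 3874 counts per 1000000 (CPM). Of 15 thalamus markers, 14 were lower and none was higher, with a median of -2.21 and summed levels of 923 and 490 CPM. Their defining gene Gbx2 had 30 counts and 0 counts, with an upper interval bound of -3.25 on the log2 scale, and Tnnt1 had 251 and 20. Of 12 oligodendrocyte markers, 9 were lower (median -0.32, summed levels 21282 and 17778 CPM), as were 6 of 9 endothelial and mural markers (median -0.28, 388 and 322 CPM) and 3 of 10 microglia markers (median -0.13, 356 and 295 CPM). Astrocyte markers had 1 of 10 lower (median -0.06, 4852 and 4518 CPM). Of 10 hypothalamus markers, 5 were higher and 2 lower (median 0.21), and the 13 in the table summed to 135 and 161 CPM, in which Cartpt alone had 1856 and 2785 counts. Of 7 choroid plexus and ependyma markers, 3 were lower (median -0.16), and the 9 in the table summed to 60.4 and 35.5 CPM. Pan-neuronal markers had 3 of 9 higher and 1 lower (median 0.10, 6396 and 6985 CPM). The part of these differences in the values of the receptors was not tested. In bulk RNA, fewer cells of a type and less RNA per cell cannot be told apart.

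Of the 38 receptors, 28 passed the count minimum. By the labels, 3 were higher in the library labelled OE (Thrb, Nr1h2 and Esrrg) and 6 were lower (Rora, Rorb, Nr1d1, Nr3c1, Nr3c2 and Nr2e1), which are 10.7% and 21.4% of the 28. Over all 15246 genes tested, 9.90% were higher and 9.16% lower by the same rule. The other 19 were not called. By the log2 threshold alone, 6 receptors were higher and 6 lower, beside 17.9% and 16.6% of all genes. The median log2 fold change of the 28 was -0.01, beside 0.0046 for all genes, with 12 values above 0 and 16 below, and a range from -1.02 to 0.43. The counts of all 38 summed to 23496 and 27219, a scaled log2 difference of -0.10 (-0.13 to -0.08). This sum does not stand for each receptor. Summed by role, the differences ranged from -0.41 for the REV-ERB and ROR receptors to 0.25 for the estrogen-related receptors.

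**Figure D1:**
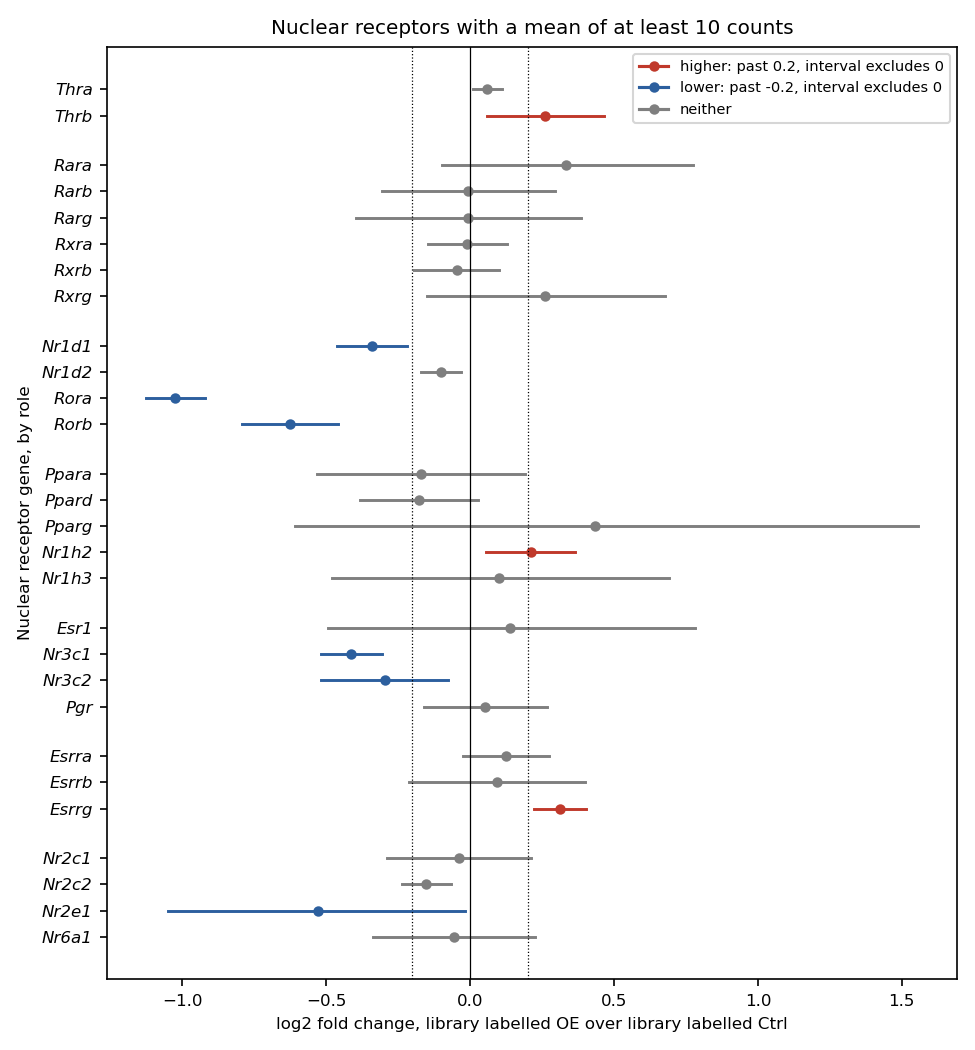
Log2 fold change (x axis, library labelled OE over library labelled Ctrl) of the 28 receptors with a mean of at least 10 counts, grouped by role on the y axis. Points are values, bars are 95% counting intervals and dotted lines mark 0.2 and -0.2. Rora, at -1.02, and Rorb, at -0.62, lie farthest to the left, and the widest interval is that of Pparg, with 13 and 22 counts.

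Levels can be compared between receptors only per length, here in CPM per kilobase of the longest coding transcript. By this measure Thra, the gene of thyroid hormone receptor alpha, stood first at 139 and 145. The REV-ERB genes Nr1d2 (39.9 and 37.3) and Nr1d1 (24.0 and 19.0) came next in the library labelled Ctrl. Below them Esrrg (17.3) and Nr1h2 (17.1) could not be told apart by their counting intervals. This order depends on the length used. Per kilobase of all annotated exons, a length chosen after seeing the data, Thra was still first, at 74.1 and 77.2, but Esrrg stood at 15.0 and Nr1h2 at 10.2 in the library labelled Ctrl. A level of 1 CPM per kilobase was reached by 26 and 25 receptors. Among 27 neighbouring pairs in the order of levels, counting intervals overlapped in 18 and 21 pairs. The libraries shared all 5 of their highest receptors, and 9 of the first 10, by the longest transcript, and 4 of 5 and 9 of 10 by all annotated exons.

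**Figure D2:**
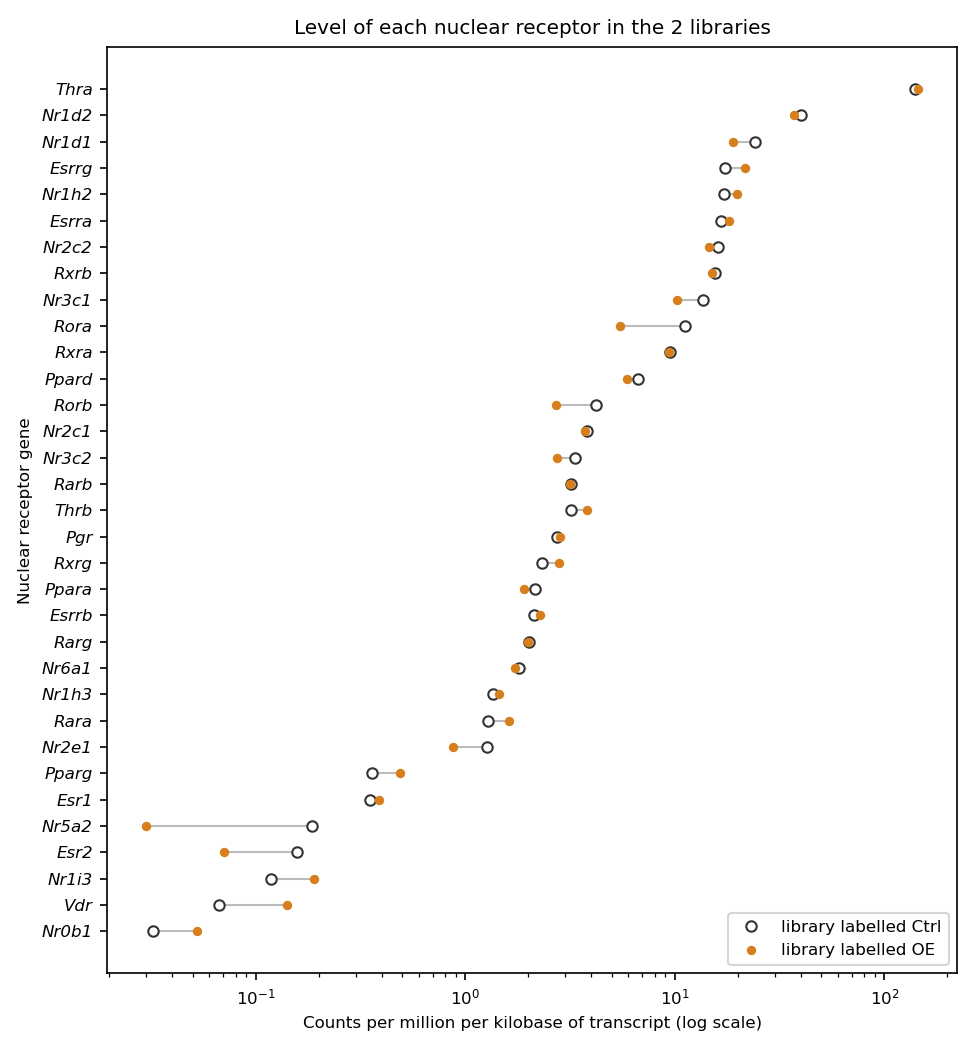
Level of each receptor in CPM per kilobase of the longest coding transcript (x axis, log scale) in the libraries labelled Ctrl (open circles) and OE (filled circles). Receptors at 0 counts in a library are not drawn. Thra, at 139 and 145, stands apart from the rest, and the open circle of Rora lies to the right of its filled circle, at 11.1 against 5.48.

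The largest differences among tested receptors were in the circadian group. Rora and Rorb encode ROR receptors, which activate genes at the same sites at which the REV-ERB receptors repress them, and both are known from thalamic neurons. Rora had 2070 counts in the library labelled Ctrl but 1265 in that labelled OE, at -1.02 (-1.13 to -0.92) on the log2 scale. Rorb had 664 and 535 counts, at -0.62 (-0.79 to -0.46). Of all genes tested, 1.21% had a value at or below that of Rora and 3.31% at or below that of Rorb. The thalamus markers, a list chosen with earlier results of these data known, moved in the same direction (14 of 15 lower). Among them Gbx2 was at 0 counts in the library labelled OE. The part of the thalamus markers in the values of Rora and Rorb was not tested. Rora spans chr9:68653786-69388246 on the plus strand and Rorb chr19:18930605-19111196 on the minus strand of GRCm38, by the GENCODE annotation. By level, Rora went from 11.1 to 5.48 and Rorb from 4.18 to 2.71 CPM per kilobase. Nr1d1, the REV-ERB alpha gene, had 1116 and 1094 counts and was lower, at -0.34 (-0.46 to -0.22). Nr1d2, its REV-ERB beta paralog, had 3179 and 3685 counts, and its value of -0.10 (-0.17 to -0.03) did not pass the threshold. The counts of the 4 genes together made up 29.9% of all receptor counts in the first library and 24.2% in the second.

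The upstream sequences of the genes with the largest differences, Rora and Rorb, are shown to let their composition be read beside the counts. They are the 250 bases before the annotated start, from RefSeq on GRCm38.p6, written 5′ to 3′ on the strand of the gene, with CG dinucleotides in capitals. Rora lies at chr9:68653536-68653785 on the plus strand, with 26 CG dinucleotides and 61.2% G and C.
Rora: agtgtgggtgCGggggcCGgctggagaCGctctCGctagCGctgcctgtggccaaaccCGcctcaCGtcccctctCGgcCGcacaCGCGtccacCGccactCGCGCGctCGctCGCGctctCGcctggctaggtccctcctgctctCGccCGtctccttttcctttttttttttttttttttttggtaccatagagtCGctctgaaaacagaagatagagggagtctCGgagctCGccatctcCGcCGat
Rorb lies at chr19:19111197-19111446 on the minus strand, with 18 CG dinucleotides and 66.0% G and C.
Rorb: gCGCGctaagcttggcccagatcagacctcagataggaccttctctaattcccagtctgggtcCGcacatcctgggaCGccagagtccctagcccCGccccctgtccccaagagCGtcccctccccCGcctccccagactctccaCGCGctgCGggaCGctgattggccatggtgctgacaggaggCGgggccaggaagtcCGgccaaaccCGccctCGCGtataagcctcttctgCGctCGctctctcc
Neither window holds AGGTCA on either strand. Among the 35 receptors with a window in the table, of which 17 overlap an exon of their own gene, 7 hold that hexamer (20%), beside 14.0% of all 32851 windows of the same length. The receptors have 1 window each, whereas the 32851 were not reduced to 1 per gene or chosen by gene type, here and below. TAGGTCA, a longer site for REV-ERB and ROR monomers that contains the hexamer, is in none of the 35 and in 2.23% of all windows. A direct repeat of the hexamer with a 1-base gap is in none of the 35 and in 0.0335% of all windows. The E-box CACGTG, which CLOCK and BMAL1 bind, is in 3 of the 35 (8.57%) and in 6.02% of all windows. The members' windows had a median G and C content of 60.8%, beside 52.4% over all windows. Thrb and Nr1d2 both hold the hexamer and are shown as examples, with 10 bases on each side and the hexamer in capitals. The other receptors that hold it are not shown. That of Thrb, a called receptor, is at chr14:17660776-17660781 on the plus strand, 184 bases before the RefSeq start used here. This start lies inside the gene as GENCODE spans it, from 17660261, so the hexamer does too, and 68 bases of the window are exonic in Thrb. That of Nr1d2 is at chr14:18239178-18239183 on the minus strand, 77 bases before the start, in a window with 21 exonic bases of Nr1d2.
Thrb: gagagttgacAGGTCAagggaatagg
Nr1d2: ttggaagaagAGGTCAggaccgctcg
A match is a description of letters and not a bound site.

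Pairs of related receptors were also compared by the ratio of their counts within a library. The ratio is not corrected for length, and its change does not depend on length or on the scaling between libraries. Of 13 pairs, 3 had an interval of the change that excluded 0. The Rora to Rorb ratio went from 3.12 to 2.36, a log2 change of -0.40 (-0.59 to -0.20). The Nr1d1 to Nr1d2 ratio went from 0.351 to 0.297, a change of -0.24 (-0.38 to -0.10). The Esrra to Esrrg ratio went from 0.400 to 0.351, a change of -0.19 (-0.36 to -0.012). For the other 10 pairs a change was not detectable at this depth. The Thra to Thrb ratio, for example, went from 17.3 to 15.1, a change of -0.20 (-0.41 to 0.0067).

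**Figure D3:**
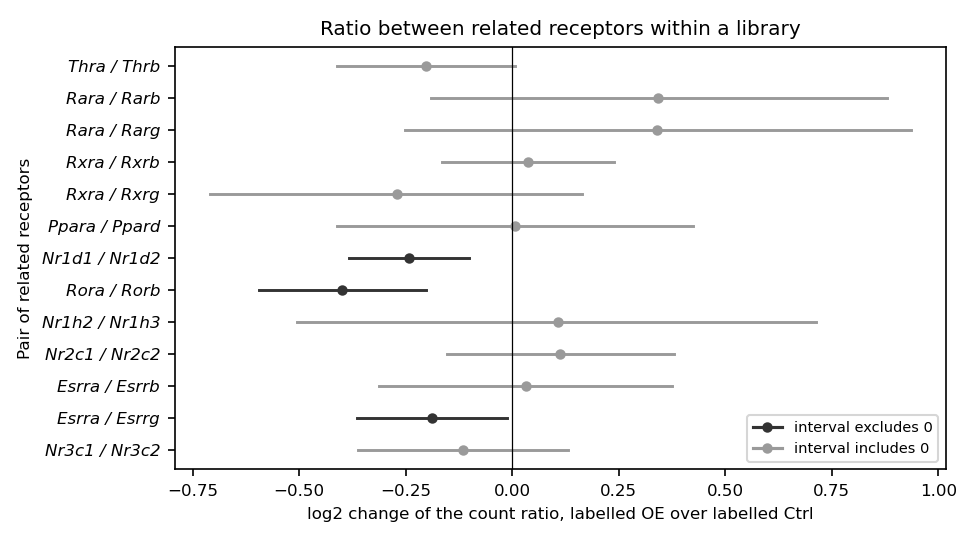
Log2 change of the count ratio between related receptors (x axis, library labelled OE over library labelled Ctrl) for 13 pairs (y axis), with 95% counting intervals as bars. The 3 pairs drawn dark have intervals that exclude 0, all on the negative side, and Rora to Rorb, at -0.40, is the lowest.

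Thyroid hormone receptors were represented by both genes. Thra had 5837 and 7561 counts, and its value of 0.06 (0.01 to 0.11) did not pass the threshold. The beta receptor gene Thrb (chr14:17660261-18038090, plus strand, GRCm38) had 337 and 502 counts and was higher, at 0.26 (0.06 to 0.47). Of the thyroid hormone target list, 13 genes were tested, and 4 were higher and 2 lower with a median of 0.08. Nefh, a neurofilament, was at 0.52 and Nefm at 0.42, and Nrgn, a calmodulin-binding protein of dendrites, was at -0.58. Nefh and Nefm are also neuronal structural genes, and of 9 pan-neuronal markers 3 were higher, among them the neurofilament Nefl at 0.54, and 1 was lower, Rbfox3 at -0.21.

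The retinoic acid and RXR receptors had no gene that was called. Rara had 74 and 116 counts, at 0.33 (-0.10 to 0.78), and Rxrg had 84 and 125 counts, at 0.26 (-0.15 to 0.68), and at this depth neither was a detectable difference. Rarb, Rarg, Rxra and Rxrb lay between -0.05 and -0.01. Together the 6 genes had 1921 and 2396 counts, a log2 difference of 0.01 (-0.08 to 0.09).

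Of the lipid, sterol and xenobiotic sensors, 5 of 9 passed the count minimum. Nr1h2, the liver X receptor (LXR) beta gene, which senses oxysterols, had 585 and 841 counts and was higher, at 0.21 (0.06 to 0.37), although it fell just short of the threshold when the libraries were scaled by total counts. The LXR alpha gene Nr1h3 had 45 and 60 counts, at 0.10 (-0.48 to 0.69). Among 11 LXR targets, 2 were higher and 1 lower with a median of -0.03, and the cholesterol carrier Apoe was at 0.26 and Pltp at -0.23. The PPAR genes, which sense fatty acids, were Ppara at -0.17 (-0.53 to 0.19), Ppard at -0.18 (-0.38 to 0.03) and Pparg at 0.43 (-0.61 to 1.56), none detectable at this depth. Of 15 PPAR targets, 4 were higher and 2 lower, with a median of 0.10. Pdk4, at 0.63, is counted as higher both here and among the glucocorticoid targets. Plin4, a lipid droplet protein, had 502 and 1751 counts, at 1.49 (1.35 to 1.64).

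Steroid receptors were lower for the corticosteroid genes. Nr3c1, the glucocorticoid receptor, had 1495 and 1396 counts, at -0.41 (-0.52 to -0.31). Nr3c2, the mineralocorticoid receptor, had 338 and 342 counts, at -0.30 (-0.52 to -0.07). Because the library labelled OE was the deeper one, near-equal counts stand for a lower level there. Markers of thalamus (14 of 15), oligodendrocytes (9 of 12) and endothelial and mural cells (6 of 9) were lower in the same library. So were those of microglia (3 of 10), choroid plexus and ependyma (3 of 7) and astrocytes (1 of 10). Dopaminergic neuron markers were higher (16 of 16), and hypothalamus and pan-neuronal markers differed in both directions. The part of any of these lists in the values of Nr3c1 and Nr3c2 was not tested. Pgr, the progesterone receptor, was at 0.05 (-0.16 to 0.27) and Esr1, an estrogen receptor, at 0.14 (-0.49 to 0.78) on 38 and 52 counts.

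The glucocorticoid target list moved in the other direction from its receptor. Of 15 genes, 11 were higher and none was lower, with a median log2 fold change of 0.59. This list too was chosen with earlier results of these data known. Zbtb16, a zinc-finger repressor, had 265 and 884 counts, at 1.42 (1.23 to 1.63), and Arl4d had 171 and 459, at 1.11 (0.85 to 1.37). Dusp1, a phosphatase, was at 0.00 and Klf9 at 0.08, and neither passed the threshold. Fkbp5, which lowers the hormone affinity of the receptor, had 388 and 805 counts, at 0.74 (0.56 to 0.92), and the kinase Sgk1 had 2555 and 5554, at 0.81 (0.74 to 0.88). These last genes were named after their values were seen. The dopaminergic markers were higher in the same library, 16 of 16 with summed levels of 1618 and 3874 CPM, and the oligodendrocyte markers were lower, 9 of 12, and the part of either in these values was not tested.

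**Figure D4:**
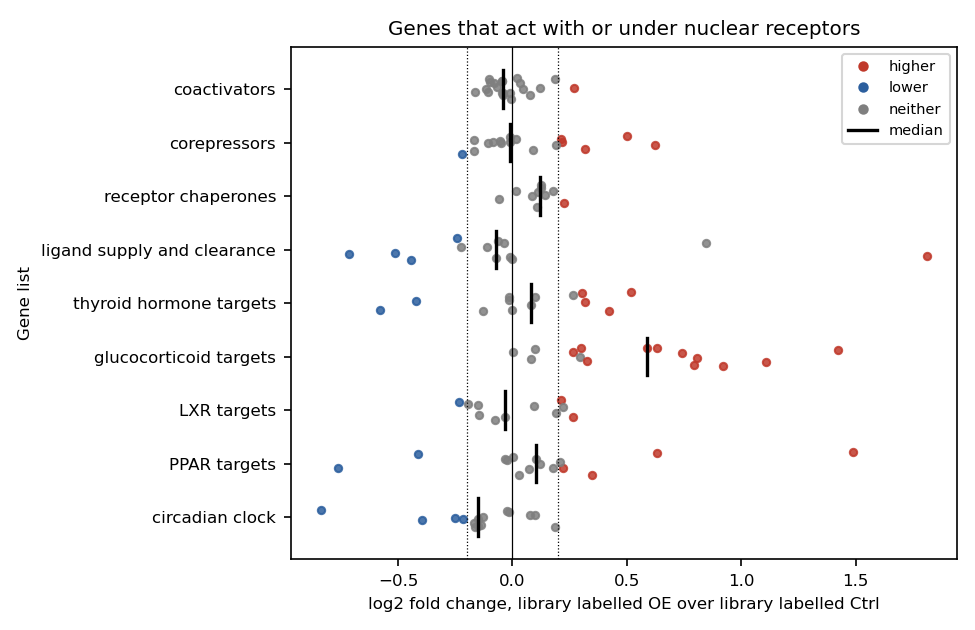
Log2 fold change (x axis, library labelled OE over library labelled Ctrl) of each tested gene in 9 lists that act with or under nuclear receptors (y axis). Points are genes, coloured by call, and black bars are medians. The glucocorticoid targets have the highest median, 0.59, and no gene below 0, and the circadian clock genes have the lowest, -0.15.

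Estrogen-related receptors, orphan relatives that drive energy metabolism genes, had 2381 and 3520 counts together, a log2 difference of 0.25 (0.18 to 0.33). Their share of all receptor counts was 10.1% and 12.9%. Esrrg (chr1:187608791-188214885, plus strand, GRCm38) had 1589 and 2452 counts and was higher, at 0.31 (0.22 to 0.40), a value that 10.6% of all genes reached or passed. Esrra was at 0.12 (-0.03 to 0.27) and Esrrb at 0.09 (-0.21 to 0.40). Their coactivator genes Ppargc1a and Ppargc1b were at 0.12 and 0.19 and were not called.

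Of the orphan receptors with a DNA-binding domain, Nr2e1, known from neural stem cells, had 71 and 61 counts and was lower, at -0.53 (-1.05 to -0.02), an interval that comes close to 0. Nr2c2, a testicular receptor gene, was at -0.15 (-0.24 to -0.07). Nr2c1 was at -0.04 (-0.29 to 0.21) and Nr6a1 at -0.06 (-0.34 to 0.23). None of these 3 was called.

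The remaining 10 receptors were under the count minimum. Vdr had 5 and 13 counts, Nr1i3 6 and 12, and Esr2 9 and 5. Nr5a2 had 15 and 3 counts, at -2.43 (-5.07 to -0.81). Being under the minimum, none of these values was called. Nr1h4, Hnf4a, Nr0b1 and Nr0b2 had at most 3 counts in either library. Nr2e3 and Nr5a1 had 0 in both, with a counting interval that reaches 3.69 counts in each library. For scale, 3 counts are 0.176 and 0.141 CPM in the libraries labelled Ctrl and OE.

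The clock genes that act with the circadian receptors had 4 of 15 lower and none higher, with a median of -0.15. Npas2, a paralog of Clock, had 170 and 118 counts, at -0.84 (-1.19 to -0.49), and Hlf was at -0.40. Per2 was at 0.19 and Per1 at 0.10, and neither was called. Time of day is not given in the labels.

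Among the proteins that receptors recruit, 1 of 21 coactivators was higher and none lower, with a median of -0.04, and that gene was Pprc1, at 0.27 (0.08 to 0.46). Of 17 corepressors, 5 were higher and 1 lower, with a median of -0.01. Hr, at 0.32, is counted as higher both here and among the thyroid hormone targets. Bcl11b had 154 and 295 counts, at 0.62 (0.34 to 0.92), and Rcor2 was at 0.50, while Hdac1 was at -0.22. Of 10 receptor chaperones, Fkbp4 was higher at 0.22, and their median was 0.12.

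Some receptor exons overlap another gene, and whether counting used strand is not given in the sources used here. Thra and Nr1d1 lie on opposite strands of chromosome 11 and share 263 exon bases. Nr2c2 shares 4590 with Mrps25, Rarb 1793 with Top2b, and Nr1i3 3304 with Tomm40l. Rora shares 82 with an antisense gene, Gm15511, and Nr3c2 shares 247 with Gm10649, which had 3 and 5 counts. Reads in these stretches cannot be told apart here.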

How the data were processed

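RNA from ventral midbrain was made into stranded libraries of polyadenylated RNA and read from both ends over 50 bases, and the processing used the mm10 build per the labels. The authors deposited expected counts per gene from RSEM, unscaled. The aligner is not given in the sources used here. Each group has 1 library, with 16984336 and 21326632 counts. From there, the expected counts were scaled by TMM (edgeR 4.0.16), and log2 ratios were formed with a pseudocount of 0.5. Calls were made where a gene's mean reached 10 counts. Counts were rounded only for exact 95% Clopper-Pearson intervals, which cover counting error only. Levels per length used the longest coding transcript of the GENCODE annotation, or all annotated exons as an alternative. The script was tested on simulated data. The 38 receptors are all named; of each other list, the 2 highest and 2 lowest genes are named, except for some that are not reported here, and any other gene was chosen after its values were seen. The receptors and lists were chosen with earlier results of these data known. Upper-quartile, total-count and DESeq2 (1.42.0) scaling, a pseudocount of 5 and other filters were tried. The lists were coactivators, corepressors, chaperones, ligand supply, targets and clock genes, and cell type markers. Some genes are in more than 1 list, so the lists are not separate from each other.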

Additional observations from a re-analysis of the deposited data

How the results depend on the processing

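No paired analysis was possible because there is just 1 library per group. Log2 fold changes of receptors were recomputed only under the other scalings and the other pseudocount. All 112 stayed inside their counting interval, and no called value changed sign. These settings moved the values little, so neither outcome had much room to differ. Rora, for example, ranged from -1.04 to -1.02. Under every scaling tried, the median over all genes stayed within 0.1 of its main value. A threshold of log2 0.5 left 0 receptors higher and 3 lower (Nr2e1, Rora and Rorb), against 3 and 6, and 522 and 477 of all genes, against 1509 and 1396. Dropping the condition on the interval gave 6 receptors higher, and 2723 and 2536 of all genes. Without receptors whose exons overlap another gene, a choice made after seeing the data, the same 3 were higher and 3 were lower (Rorb, Nr3c1 and Nr2e1). Of the 28 tested receptors this left out Rora, Nr1d1 and Nr3c2, called lower, and Thra, Rarb, Nr1h3, Nr2c2 and Esrra, not called. All genes tested then numbered 15238, and 52.0% of those called were higher. With all 15246 genes, 9.90% were higher and 9.16% lower. Total-count scaling put Nr1h2 under the threshold and changed the LXR targets to 1 higher and 2 lower. A mean of at least 100 counts left out Nr2e1, and keeping every gene with a count added Nr5a2 among the lower ones. Counts in other lists were likewise recomputed only under the other scalings and the other pseudocount, not under the other thresholds and filters. Of 152 such counts, 150 stayed within 1.5 times. These settings shifted genes little, so the counts had little room to change. The median over all genes went from 0.0046 to -0.011 under total-count scaling, the largest move among them. Whether the list counts hold under the other thresholds and filters was not tested. Among called genes 51.9% were higher, and the alternatives gave 46.4% to 52.4%. Counting intervals were widest for Pparg, Esr1, Nr1h3 and Nr2e1.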

Other observations

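Genes that make, carry or clear ligands differed in both directions. Of 13 tested, 1 was higher and 4 were lower by the labels, with a median of -0.07. Cyp26b1, which breaks down retinoic acid, had 38 and 167 counts, at 1.81 (1.31 to 2.37). Fabp7, a fatty acid carrier of glial cells, had 568 and 430 counts, at -0.71 (-0.90 to -0.53), and Cyp46a1, which makes an oxysterol from cholesterol in neurons, was at -0.51. Of 7 estrogen receptor targets, 3 were higher and 1 was lower, with a median of 0.12. Irs4 was at 1.11 and Greb1 at 0.82. Oxt, the oxytocin gene, had 48 and 2 counts and is also a hypothalamus marker.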
